A study of Rattus norvegicus with 19 samples.

Results

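The genes described here carry out fatty acid uptake and mitochondrial fatty acid oxidation in the left ventricle of hypertensive rats. They were chosen by symbol from a list of 32 genes, and each was represented by the probe set with the highest mean over the 19 arrays. Of the 32 listed genes 31 were measured, among 14217 genes with a probe set of their own. Acaa1a, a peroxisomal thiolase, had no probe set that names it alone, since its probe set names Acaa1b as well. Its level is not described, and it enters only the search of upstream sequences.

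The adult heart draws most of its energy from long-chain fatty acids. Lipoprotein lipase releases them from circulating triglyceride, membrane and cytosolic carriers bring them into the cardiomyocyte, and an acyl-CoA synthetase activates them on their way to the mitochondrion. The carnitine shuttle moves the activated chains across the mitochondrial membranes, and its entry step is held back by malonyl-CoA. Inside, the beta-oxidation spiral removes acetyl units through repeated dehydrogenation, hydration, a further dehydrogenation and thiolysis, and flavoprotein carriers pass the electrons to the respiratory chain. In the failing or overloaded heart these genes are widely known to be expressed at lower levels, and many of them are targets of the nuclear receptor PPAR alpha.

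All 19 arrays came from male Dahl salt-sensitive rats (SS/Hsd), an inbred strain that becomes hypertensive on dietary salt, and every rat, controls included, was given a 6% NaCl diet starting at 6 weeks of age. Baseline rats (n = 4) were taken at 11 weeks of age after 5 weeks of this diet, without any treatment. The other groups stayed on the diet for 4 more weeks and were taken at 15 weeks of age. The vehicle group (n = 4) received injections of the propylene glycol and ethanol vehicle. The paricalcitol group (n = 4) received 200 ng of paricalcitol, a synthetic vitamin D analogue that activates the vitamin D receptor, by intraperitoneal injection 3 times a week. The enalapril group (n = 3) received enalapril, an angiotensin-converting enzyme inhibitor, at 90 ug a day from an osmotic pump together with the vehicle injections. The combination group (n = 4) received that enalapril dose and the paricalcitol injections. The enalapril dose was chosen by the submitters as the largest that left blood pressure without a clear fall. No group ate a normal diet, so the values say nothing about the diet itself, and vehicle against baseline compares 4 more weeks of diet, age and injection together.

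Levels are given as log2 of the array intensity plus 16 after quantile normalization, so that 1 unit is a doubling and 4.00 is the floor. The arrays resembled each other closely (Pearson's r between 0.958 and 0.985 over genes), and no pair held the same values. The median deposited intensity lay between 43.57 and 72.56. Markers of cardiac muscle were at high levels. Tnnt2 (cardiac troponin T) lay between 14.14 and 14.32 and Myl2 (ventricular myosin light chain) between 13.70 and 13.97. Myh6 (alpha myosin heavy chain) was less even, between 11.36 and 14.02. Of the adipocyte markers, Lep was at the floor on 19 of 19 arrays and the median level of Adipoq was 4.64. Others were higher. Cfd had a median of 6.68, Cidea lay between 10.51 and 11.29, and Fabp4, which endothelium also expresses, between 11.27 and 12.30. The samples are bulk tissue, so fewer cells of a type and less RNA per cell cannot be told apart. The labels give replicate numbers and do not say that each is a separate rat, so the tests measure the spread between these samples.

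No member differed between groups at an adjusted p under 0.05 in any of the 7 comparisons or in the test for any difference among the 5 groups (limma, Benjamini-Hochberg over 14217 genes). The group means of the members lay close together. The distance between the highest and the lowest group mean was 0.11 for Acadl, 0.13 for Cd36 and 0.14 for Lpl, and it was widest for Pdk4 at 0.96, Ucp3 at 0.86 and Acacb at 0.81. What the members did show was a joint movement from array to array within groups, above all in the groups given paricalcitol. Same-numbered arrays of the paricalcitol and combination groups also deviated together over all genes brighter than the median gene (r of 0.31 to 0.56). The part of this wider pattern in the movement of the members was not tested.

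**Figure D1:**
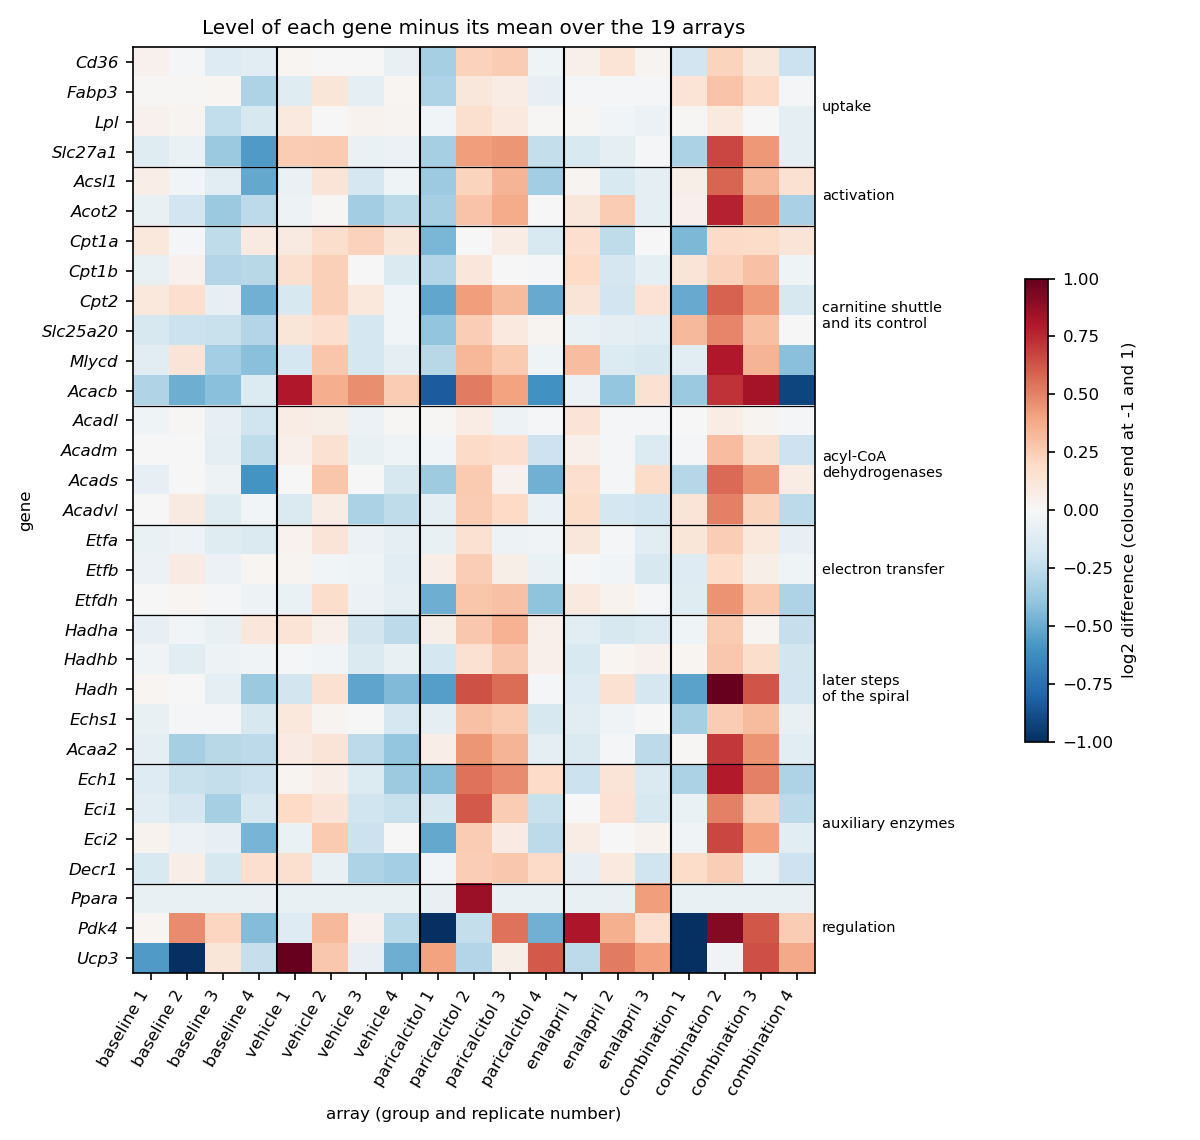
Each row is a measured gene, grouped by its role, and each column is an array; the colour is the log2 level minus the gene's mean over the 19 arrays, with colours ending at -1 and 1. Arrays 2 and 3 of the paricalcitol and of the combination group are red for most genes, and arrays 1 and 4 of these groups are mostly pale or blue; 28 and 27 of 31 genes were above their own mean on paricalcitol 2 and 3, and 29 and 29 on combination 2 and 3.

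Uptake begins with Lpl, which frees fatty acids at the capillary wall. Its level was 13.26 ± 0.14 (SD, n = 4) in baseline, 13.39 ± 0.04 (n = 4) in vehicle, 13.41 ± 0.08 (n = 4) with paricalcitol, 13.33 ± 0.04 (n = 3) with enalapril and 13.35 ± 0.08 (n = 4) with the combination. Fabp3, the heart's cytosolic fatty acid binding protein, lay between 13.40 and 14.00, and both genes were among the brightest probe sets on the array. Whether quantile normalization narrows differences at this brightness was not tested. Over the 19 arrays Lpl spanned a 1.32-fold range and Fabp3 a 1.51-fold range.

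Cd36, the fatty acid translocase of the cell membrane, measured 12.51, 12.48, 12.48 and 12.41 in vehicle and 12.54, 12.62 and 12.51 with enalapril. With paricalcitol it measured 12.15, 12.72, 12.74 and 12.45, and with the combination 12.29, 12.71, 12.60 and 12.27. The 3 enalapril arrays lay just above the vehicle arrays, while each group given paricalcitol held arrays on both sides of them. Slc27a1, the fatty acid transport protein FATP1, measured 9.05, 9.09, 8.79 and 8.59 in baseline and 9.42, 9.42, 9.10 and 9.10 in vehicle. These groups did not overlap. With paricalcitol Slc27a1 measured 8.83, 9.58, 9.61 and 8.93, and with the combination 8.85, 9.83, 9.60 and 9.07, so that replicates 2 and 3 were the high ones in both groups.

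Acsl1, the main cardiac long-chain acyl-CoA synthetase, measured 11.75, 11.56 and 11.62 with enalapril and 11.78, 12.30, 12.04 and 11.87 with the combination. The combination arrays were all above the enalapril arrays. In baseline it measured 11.79, 11.69, 11.60 and 11.21, in vehicle 11.65, 11.85, 11.55 and 11.68, and with paricalcitol 11.36, 11.94, 12.06 and 11.37. The paricalcitol group thus split into a high and a low pair that lay on either side of all 4 vehicle arrays. Acot2, a mitochondrial thioesterase that takes the CoA off again, had group means of 10.03 in baseline, 10.09 in vehicle, 10.33 with paricalcitol, 10.34 with enalapril and 10.49 with the combination. Its readings are uncertain in identity, because Acot1 is a near-identical neighbour and another probe set of the array names both. Its highest level was 11.02, on combination 2.

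The carnitine shuttle gave the member with the smallest p in 4 of the 8 tests, Slc25a20, the carnitine-acylcarnitine translocase of the inner membrane. Slc25a20 measured 10.32, 10.26, 10.26 and 10.18 in baseline, 10.60, 10.64, 10.30 and 10.45 in vehicle, and 10.08, 10.72, 10.57 and 10.50 with paricalcitol. With enalapril it measured 10.41, 10.38 and 10.36, and with the combination 10.80, 10.96, 10.78 and 10.47. The 4 combination arrays were above the 3 enalapril arrays, as for 2.76% of all genes, and they overlapped the vehicle and paricalcitol arrays. The stretch of 250 bases before its start site (RefSeq, assembly GRCr8, chr8:118243323-118243572, plus strand) is shown because this gene had the smallest p values of the group, with capitals marking a GC box (GGGCGG, read on either strand):
Slc25a20: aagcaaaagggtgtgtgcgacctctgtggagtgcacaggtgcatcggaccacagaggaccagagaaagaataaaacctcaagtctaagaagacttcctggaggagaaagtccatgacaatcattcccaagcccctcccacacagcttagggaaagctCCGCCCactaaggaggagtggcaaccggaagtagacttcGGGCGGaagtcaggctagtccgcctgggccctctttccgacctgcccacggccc

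Cpt1b, the muscle form of carnitine palmitoyltransferase at the outer membrane, had group means of 12.19 ± 0.16 (n = 4) in baseline, 12.40 ± 0.17 (n = 4) in vehicle, 12.29 ± 0.17 (n = 4) with paricalcitol, 12.32 ± 0.19 (n = 3) with enalapril and 12.49 ± 0.15 (n = 4) with the combination. Its spread was even between groups. Cpt1a, the form known from liver and fetal heart, measured 9.36, 9.45, 9.50 and 9.39 in vehicle and 8.82, 9.27, 9.35 and 9.12 with paricalcitol, and the paricalcitol arrays were all below the vehicle arrays. With the combination it measured 8.82, 9.46, 9.46 and 9.40, so that replicate 1 stood alone at the low end. Cpt2, the inner-membrane enzyme that hands the chain back to CoA, had a mean between 10.56 and 10.72 in every group. Its SD was 0.17 in vehicle and 0.51 in each group given paricalcitol, where it measured 10.11, 11.05, 10.95 and 10.13 without enalapril and 10.13, 11.22, 11.06 and 10.47 with it.

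Entry into the shuttle is controlled by malonyl-CoA, which Acacb (acetyl-CoA carboxylase 2) makes and Mlycd (malonyl-CoA decarboxylase) removes. Acacb measured 7.33, 7.14, 7.21 and 7.49 in baseline and 8.43, 7.99, 8.10 and 7.89 in vehicle, which did not overlap. With enalapril it measured 7.57, 7.24 and 7.78, all below the vehicle arrays. With paricalcitol it measured 6.80, 8.15, 8.03 and 7.02, and with the combination 7.26, 8.35, 8.46 and 6.71. In these last groups replicates 1 and 4 lay below the vehicle range; replicates 2 and 3 lay within it, except combination 3, which was just above its top. Mlycd had group means between 9.39 in baseline and 9.73 with the combination, and its highest level, 10.37, was on combination 2. The upstream stretch of Acacb (RefSeq, GRCr8, chr12:48138215-48138464, minus strand) is shown because this member alone had an unadjusted p under 0.05 in vehicle against baseline and because it holds the nuclear receptor half-site AGGTCA, in capitals on either strand, its first base 155 bases from the start; a CCAAT box is also in capitals:
Acacb: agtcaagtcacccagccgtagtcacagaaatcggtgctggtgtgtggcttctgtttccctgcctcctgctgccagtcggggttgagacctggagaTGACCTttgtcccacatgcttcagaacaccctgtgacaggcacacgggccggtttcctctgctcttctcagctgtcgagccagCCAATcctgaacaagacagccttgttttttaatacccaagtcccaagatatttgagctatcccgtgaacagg

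The acyl-CoA dehydrogenases catalyse the entry step of the spiral for chains of different length. Acadl, the long-chain enzyme, was the steadiest member, with levels from 13.33 to 13.66, a 1.26-fold range. It was also among the brightest probe sets, and the part of the normalization in this range was not tested. Acadm, the medium-chain enzyme, had group means between 12.87 in baseline and 13.03 with the combination. Acadvl, the very-long-chain enzyme of the inner membrane, measured 10.92, 11.14, 10.74 and 10.81 in vehicle and 11.19, 11.56, 11.29 and 10.80 with the combination. Of the 4 combination arrays 3 lay above all vehicle arrays and replicate 4 lay among them. Acads, the short-chain enzyme, spanned a 2.24-fold range, from 9.51 on baseline 4 to 10.67 on combination 2.

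Electrons from these enzymes pass to the electron transfer flavoprotein, whose subunits are Etfa and Etfb, and from there through Etfdh to ubiquinone. Etfa spanned a 1.31-fold range and Etfb a 1.32-fold range over the 19 arrays. Etfdh had group means between 10.89 and 11.04. Its level was 10.95 ± 0.03 (SD, n = 4) in baseline, while with paricalcitol the arrays gave 10.47, 11.24, 11.26 and 10.57 and with the combination 10.85, 11.41, 11.23 and 10.65. Replicates 2 and 3 were again the high pair in both groups.

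The later steps of the spiral are carried out on long chains by the trifunctional protein, with subunits Hadha and Hadhb, and on shorter chains by Echs1 (hydratase), Hadh (hydroxyacyl-CoA dehydrogenase) and Acaa2 (thiolase). Hadha measured 11.79, 11.71, 11.47 and 11.39 in vehicle and 11.71, 11.92, 12.00 and 11.71 with paricalcitol. Hadhb measured 13.06, 13.05, 12.94 and 13.01 in vehicle and 12.91, 13.24, 13.35 and 13.13 with paricalcitol. For Hadha the lower paricalcitol arrays lay within the vehicle range. For Hadhb replicate 1 lay below all vehicle arrays and the other 3 lay above them. Hadha and Hadhb lie head to head on chromosome 6, with start sites 301 bases apart, and their upstream windows share 200 bases. The window read in the direction of Hadha (RefSeq, GRCr8, chr6:31907551-31907800, plus strand) is shown because most of it is shared with the window upstream of Hadhb, with capitals marking a GC box:
Hadha: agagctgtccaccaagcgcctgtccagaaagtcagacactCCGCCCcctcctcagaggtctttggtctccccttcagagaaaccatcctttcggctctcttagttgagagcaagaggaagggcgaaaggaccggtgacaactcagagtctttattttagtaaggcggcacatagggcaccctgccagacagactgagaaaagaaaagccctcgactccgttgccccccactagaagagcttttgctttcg

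Hadh, which was singled out after its values were seen, spanned a 3.06-fold range, the widest among the enzymes of the spiral. It measured 11.57, 11.91, 11.23 and 11.31 in vehicle, 11.20, 12.39, 12.31 and 11.74 with paricalcitol, and 11.21, 12.81, 12.38 and 11.56 with the combination. In deposited intensity the lowest and highest arrays read 1916.82 and 6375.63. The stretch upstream of Hadh (RefSeq, GRCr8, chr2:222504447-222504696, minus strand) is shown for this range, with its GC boxes in capitals:
Hadh: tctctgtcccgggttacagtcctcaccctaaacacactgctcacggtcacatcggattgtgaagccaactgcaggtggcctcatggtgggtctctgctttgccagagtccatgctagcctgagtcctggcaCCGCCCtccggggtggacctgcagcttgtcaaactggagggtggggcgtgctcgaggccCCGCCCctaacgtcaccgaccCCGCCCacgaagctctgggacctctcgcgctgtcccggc

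Acaa2 measured 12.38, 12.43, 12.04 and 11.91 in vehicle and 12.16, 12.29 and 12.04 with enalapril. With paricalcitol it measured 12.37, 12.74, 12.65 and 12.21, and with the combination 12.31, 13.01, 12.75 and 12.19. The low end of each group given paricalcitol lay within the vehicle range, and replicates 2 and 3 lay above it. Echs1 spanned a 1.57-fold range over the 19 arrays.

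The auxiliary enzymes let unsaturated chains enter the spiral. Ech1, Eci1 and Eci2 shift double bonds, and Decr1 reduces dienoyl-CoA. Decr1 measured 11.37, 11.14, 10.91 and 10.87 in vehicle and 11.19, 11.46, 11.48 and 11.41 with paricalcitol, where 3 of 4 arrays were above all vehicle arrays. Ech1 measured 11.74, 12.71, 12.64 and 12.35 with paricalcitol and 11.85, 12.96, 12.67 and 11.86 with the combination, against 12.20, 12.24, 12.03 and 11.81 in vehicle. Eci1 spanned a 1.92-fold range and Eci2 a 2.26-fold range.

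Of the regulatory members, Ppara, the nuclear receptor, gave no usable level. Its probe set was at the floor on 17 of 19 arrays and read 4.93 on paricalcitol 2 and 4.49 on enalapril 3, so its differences below are those of single arrays. Pdk4, the kinase that shuts pyruvate out of the mitochondrial oxidation pathway, measured 11.08, 11.53, 11.27 and 10.62 in baseline, 10.93, 11.38, 11.10 and 10.79 in vehicle and 11.86, 11.41 and 11.23 with enalapril. With paricalcitol it measured 9.20, 10.82, 11.60 and 10.58, and with the combination 9.72, 11.97, 11.68 and 11.31. Replicate 1 of each group given paricalcitol was more than 1 log2 unit below the rest of its group, and over all arrays Pdk4 spanned a 6.85-fold range. Ucp3, an inner-membrane carrier linked to fatty acid load, spanned a 10.95-fold range, from 5.51 on combination 1 to 8.96 on vehicle 1, and its probe sets disagreed as given below.

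**Figure D2:**
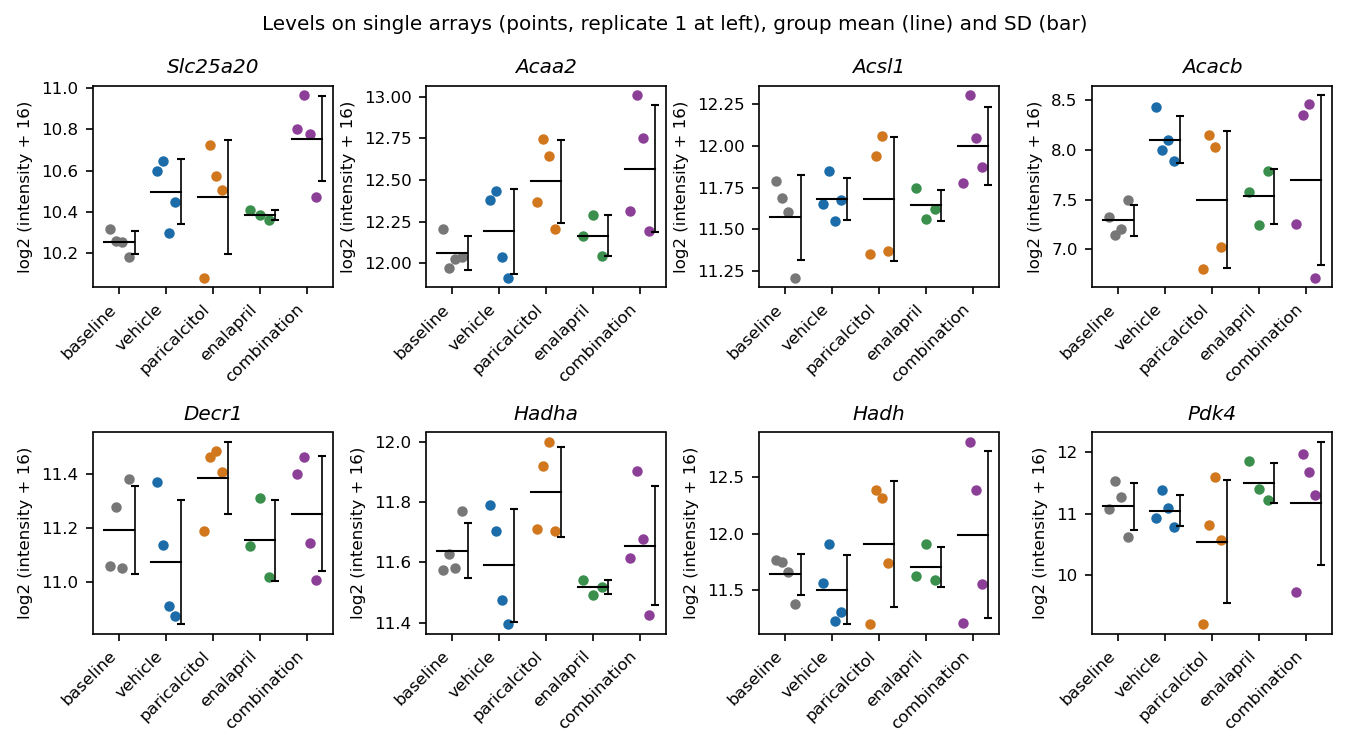
Points are single arrays, replicate 1 at left, for 8 genes; the line is the group mean and the bar its SD, on the axis of log2 (intensity + 16). Slc25a20 is higher on all 4 combination arrays than on the 3 enalapril arrays, and Hadh and Pdk4 show the wide spread of both groups given paricalcitol.

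The 4 more weeks, in which diet, age and vehicle injection go together, were compared first. In vehicle against baseline 22 of 31 members were higher, 8 were lower and 1 was level, with a median difference of 0.10, where 47.1% of all genes were higher. Without equalising the arrays 9 members (and 16.7% of all genes) were higher at a median of -0.04 while the median of all genes shifted to -0.20, and 27 members lay above that shift; with arrays scaled to one median 30 were higher at a median of 0.29. The median was 0.05 without baseline 4 and 0.05 without vehicle 2. The direction of the list in this comparison therefore flips with the scaling, and all 3 values place the members above the median of all genes. None of the 31 had an adjusted p under 0.05 (0.0844% of all genes did, limma), and 1 had an unadjusted p under 0.05 (9.22% of all genes). That member was Acacb, 0.81 (SE 0.37) higher in vehicle, with an unadjusted p = 0.0428 and an adjusted p = 0.524.

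Slc27a1 and Acacb were the 2 members whose vehicle arrays were all above the baseline arrays, which 3.76% of all genes also were, and Slc27a1 was 0.38 (SE 0.22) higher. The next members by p were Slc25a20, 0.24 (SE 0.12) higher, Lpl, 0.12 (SE 0.06) higher, Acadl, 0.10 (SE 0.05) higher, and Cpt1b, 0.22 (SE 0.12) higher, none past the threshold. Without equalising the arrays these values were 0.16 for Slc27a1, 0.06 for Slc25a20, 0.05 for Lpl, 0.01 for Acadl and 0.09 for Cpt1b. Without baseline 3 Lpl was 0.07 higher, and without baseline 4 Acadl was 0.06 higher.

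Markers of other cell types also differed in this comparison. Fibroblast and collagen markers were lower in vehicle for 11 of 12, at a median of -0.41 and with 4 at an unadjusted p under 0.05. Macrophage markers were lower for 11 of 12 (median -0.23), endothelial markers for 8 of 10 (median -0.12) and red cell markers for 6 of 6 (median -0.29). No marker of these lists had an adjusted p under 0.05 (limma), and 8 had an unadjusted p under 0.05, where 9.22% of all genes did. Such shifts were not confined to this comparison. In paricalcitol against vehicle endothelial markers were higher for 10 of 10, macrophage markers for 11 of 12 and fibroblast and collagen markers for 10 of 12. In combination against vehicle macrophage markers and fibroblast and collagen markers were each higher for 6 of 12. The part of the markers in the member values was not tested.

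The effect of paricalcitol alone was compared next. In paricalcitol against vehicle 16 members were higher and 15 lower, at a median of 0.01, where 49.4% of all genes were higher; with arrays scaled to one median 8 were higher and 36% of all genes. None had an adjusted p under 0.05 (0.0141% of all genes), and 2 had an unadjusted p under 0.05 (9.66% of all genes). Decr1 was 0.31 (SE 0.13) higher, with an adjusted p = 0.424, and Hadha was 0.24 (SE 0.10) higher, with an adjusted p = 0.446. With arrays scaled to one median these were 0.16 and 0.08. Cpt1a was the member whose paricalcitol arrays were all below the vehicle arrays, as were those of 2.55% of all genes, and it was -0.29 (SE 0.15) from vehicle, or -0.18 without paricalcitol 1. Acaa2 was 0.30 (SE 0.17) and Acot2 0.25 (SE 0.20) higher, which became 0.15 and 0.07 with arrays scaled to one median. Acacb was -0.60 (SE 0.37) and Pdk4 -0.50 (SE 0.48) from vehicle, and without paricalcitol 1 these were -0.37 and -0.06. Without paricalcitol 3 Pdk4 was -0.85 from vehicle and Acot2 0.15 higher; without paricalcitol 1 Acot2 was 0.38 higher. Hadhb, the partner of Hadha, was 0.14 (SE 0.09) higher, and -0.02 with arrays scaled to one median. When all probe sets of a gene were averaged, the difference of Hadha was 0.05 and that of Acaa2 0.19.

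Enalapril alone gave small differences on both sides of 0. In enalapril against vehicle 16 members were higher and 15 lower, at a median of 0.00, where 53.4% of all genes were higher. With arrays scaled to one median 7 were higher; without equalising the arrays 30 were higher at a median of 0.14, and 80.7% of all genes with them. None had an adjusted p under 0.05 (0% of all genes), and none had an unadjusted p under 0.05 either (5.64% of all genes); the smallest adjusted p of a member was 0.941. The Cd36 arrays were all above vehicle, as for 4.33% of all genes, at 0.09 (SE 0.13), which became -0.04 with arrays scaled to one median. The Acacb arrays were all below vehicle, as for 4.2% of all genes, at -0.57 (SE 0.39). Acot2 was 0.26 (SE 0.22) higher and Cpt1a -0.18 (SE 0.16) from vehicle, the latter 0.02 without equalising. Lpl was -0.06 (SE 0.07) from vehicle and 0.0034 without equalising, and the 0.16 (SE 0.18) of Ppara rested on enalapril 3.

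With both agents most members had higher means. In combination against vehicle 25 of 31 were higher, 5 lower and 1 level, at a median of 0.09, where 50.9% of all genes were higher; with arrays scaled to one median 18 were higher. None had an adjusted p under 0.05 (0.00703% of all genes), and 2 had an unadjusted p under 0.05 (7.68% of all genes). Acaa2 was 0.37 (SE 0.17) higher, with an adjusted p = 0.632, and Acadvl 0.31 (SE 0.14) higher, with an adjusted p = 0.642. Without combination 2 these were 0.23 and 0.19, and with the mean of all probe sets Acaa2 was 0.23. No member had combination arrays wholly apart from the vehicle arrays, where 4.24% of all genes did. Acot2 was 0.40 (SE 0.20), Acsl1 0.32 (SE 0.17), Slc25a20 0.26 (SE 0.12) and Cpt1b 0.09 (SE 0.12) higher, the last -0.02 with arrays scaled to one median. Acot2 was 0.23 without combination 2, and Acsl1 was 0.16 with the mean of all probe sets. Pdk4 was 0.12 (SE 0.48) higher, which turned to -0.15 without combination 2 and -0.05 without combination 3. The member median itself was 0.00 without combination 2, 0.06 without combination 3, 0.05 without vehicle 4 and up to 0.17 without combination 1.

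The comparisons with vehicle share the 4 vehicle arrays, and those below share the 4 combination arrays, so they are not separate evidence. Paricalcitol added to enalapril was read from combination against enalapril, where 26 members were higher and 5 lower at a median of 0.10 and 49.7% of all genes were higher. Without equalising the arrays 14 (and 25.9% of all genes) were higher, with the median of all genes at -0.11 and 25 members above it. None had an adjusted p under 0.05 (0% of all genes), and 2 had an unadjusted p under 0.05 (5.3% of all genes). Slc25a20 was 0.37 (SE 0.13) higher, with an unadjusted p = 0.0132 and an adjusted p = 0.909, and Acaa2 was 0.40 (SE 0.19) higher at the same adjusted p. Without equalising the arrays Slc25a20 was 0.22 higher. Acaa2 was 0.25 without combination 2 and 0.24 with the mean of all probe sets. The member median of this comparison was 0.01 without combination 2, 0.18 without combination 1 and 0.19 without combination 4. Slc25a20 and Acsl1, the latter 0.36 (SE 0.18) higher, had combination arrays all above the enalapril arrays, as did 2.76% of all genes. Fabp3 and Cpt1b were each 0.17 higher (SE 0.11 and 0.12), and 0.06 and 0.02 without equalising, where Acsl1 was 0.22. Cpt1b was 0.10 without enalapril 2 and 0.28 without enalapril 1.

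Enalapril added to paricalcitol was read from combination against paricalcitol, with 20 members higher and 11 lower at a median of 0.08 and 48.2% of all genes higher. None had an adjusted p under 0.05 (0% of all genes) and 1 had an unadjusted p under 0.05 (9.05% of all genes). That was Slc25a20, 0.28 (SE 0.12) higher with an adjusted p = 0.49. No member had arrays that stood wholly apart (3.43% of all genes). Acsl1 was 0.32 (SE 0.17), Eci2 0.34 (SE 0.19), and Fabp3 and Cpt1b each 0.20 higher, none past the threshold. Without paricalcitol 1 these values were 0.15 for Slc25a20, 0.21 for Acsl1, 0.21 for Eci2, 0.12 for Fabp3 and 0.12 for Cpt1b, and the member median was 0.01. Eci2 was 0.20 without combination 2. Leaving out other arrays placed the member median between -0.05, without combination 2, and 0.19, without combination 4. The interaction, which asks whether the agents together differ from the sum of their separate differences, gave 19 members above 0 and 12 below at a median of 0.04, where 48.6% of all genes were above 0; without equalising 12 members and 27.8% of all genes were above 0, and with arrays scaled to one median 28 members and 59.1%.

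In that test none of the 31 had an adjusted p under 0.05 (0% of all genes) and 1 had an unadjusted p under 0.05 (6.96% of all genes). It was again Slc25a20, with an interaction of 0.40 (SE 0.18) and an adjusted p = 0.688, followed by Cpt1b at 0.29 (SE 0.17), Ppara at -0.40, Cpt1a at 0.33 (SE 0.22) and Acsl1 at 0.36 (SE 0.24). In the test for any difference among the 5 groups none of the 31 had an adjusted p under 0.05 (0.127% of all genes), and 2 had an unadjusted p under 0.05 (10.5% of all genes). These were Slc25a20, with an adjusted p = 0.324, and Acaa2, with an adjusted p = 0.455; Hadha, Cpt1b and Acsl1 followed with adjusted p = 0.565, 0.626 and 0.633. In simulated data each shift was given to 100 genes brighter than the median gene in vehicle against baseline, with independent normal noise. The fit found 85% of shifts of 1 log2 unit and 46.2% of shifts of 0.5. The simulation held more shifted genes than were called in the data and no correlation between genes. These percentages need not hold for the members, and no other comparison was simulated.

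**Figure D3:**
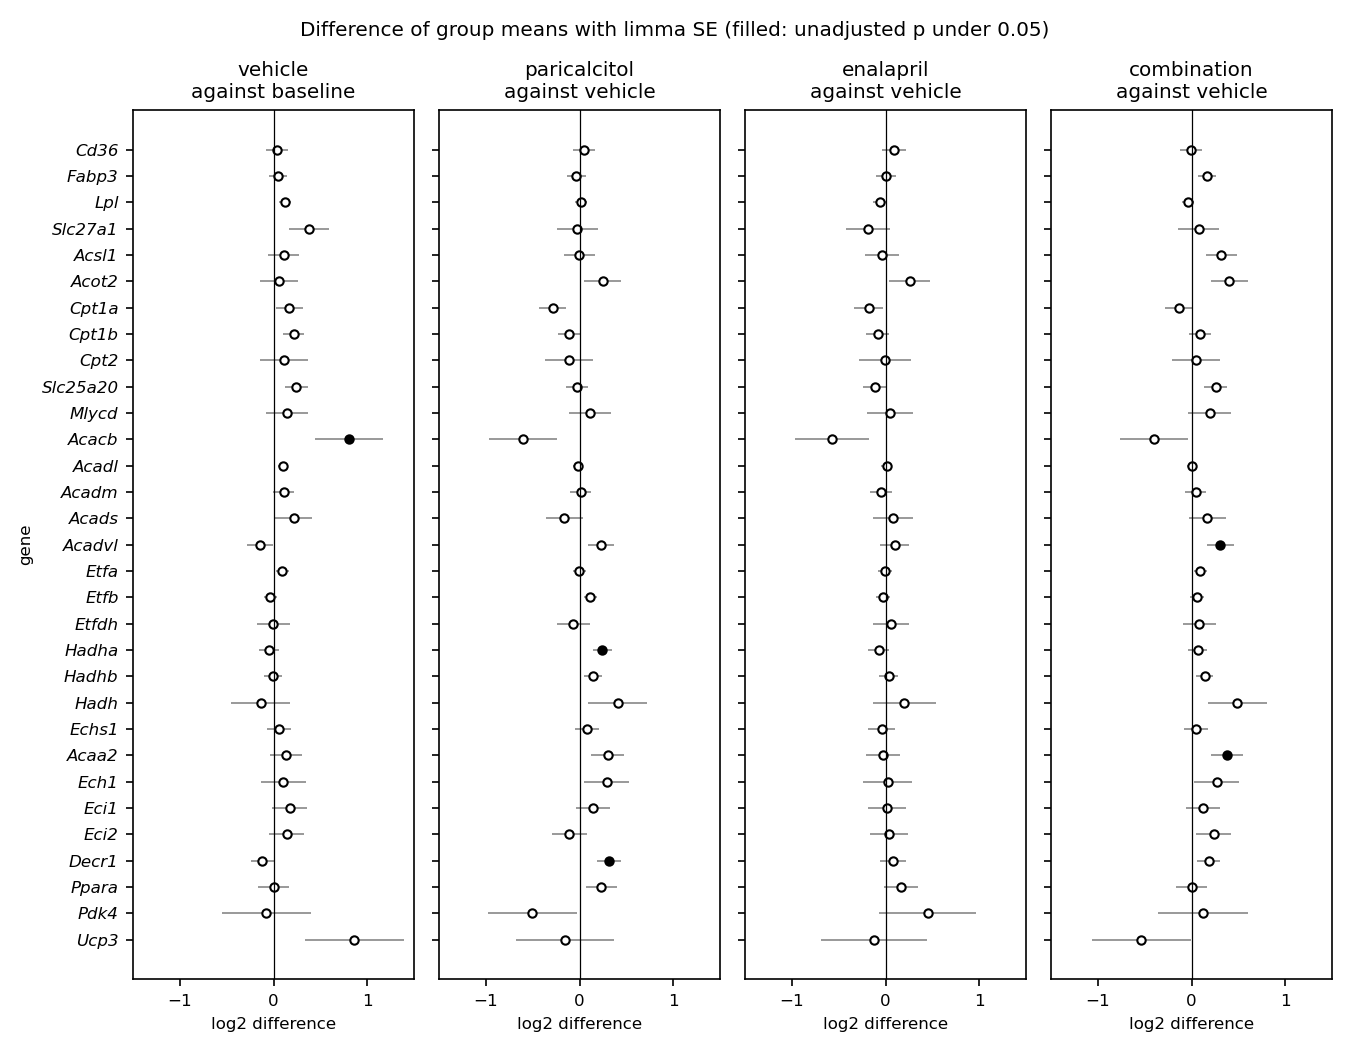
Each point is a gene's difference of group means on the log2 scale with its limma SE, for vehicle against baseline and for each treated group against vehicle; filled points have an unadjusted p under 0.05. The filled points are Acacb, then Hadha and Decr1, then none, then Acadvl and Acaa2, and no gene has an adjusted p under 0.05.

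The members moved together from array to array. The array score used here is the median, over the 31 members, of each level minus that gene's mean over the 19 arrays. It was -0.29, 0.25, 0.26 and -0.07 on paricalcitol 1 to 4, and -0.07, 0.45, 0.29 and -0.11 on combination 1 to 4. It was 0.03, 0.13, -0.08 and -0.10 in vehicle, 0.02, -0.02 and -0.06 with enalapril, and -0.06, -0.01, -0.12 and -0.22 in baseline. Replicates 2 and 3 of each group given paricalcitol were the 4 highest arrays of the 19, and paricalcitol 1 was the lowest.

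Of the 31 members, 28 were above their own mean on paricalcitol 2 (47.7% of all genes), 27 on paricalcitol 3 (47.4%), and 29 on each of combination 2 (49.1%) and combination 3 (49%). On paricalcitol 1 and combination 4 the count was 5 (47.6% and 49.1%), on paricalcitol 4 it was 7 (46.9%), and on combination 1 it was 12 (46.2%). Of 30 members (Ppara left out), combination 2 held the highest level of the 19 arrays for 17, among them Hadh, Ech1, Acaa2, Slc25a20 and Pdk4. Paricalcitol 1 held the lowest for 9, among them Cpt2, Etfdh and Cd36. The share of all genes with their highest or lowest level on these arrays was not counted. Both groups were also more spread over all genes, as given below, so these counts have no background to be read against. Without equalising the arrays the score was -0.55, 0.10, 0.04 and 0.18 on paricalcitol 1 to 4, where the median deviation of all genes was -0.20, -0.09, -0.12 and 0.23. On combination 1 to 4 it was then 0.09, 0.37, 0.05 and -0.12, where the median deviation of all genes was 0.17, -0.06, -0.21 and -0.01. Relative to all genes, replicates 2 and 3 were again the high pair of both groups. With arrays scaled to one median the score was 0.21 and 0.13 on paricalcitol 2 and 3 and 0.46 and 0.34 on combination 2 and 3, and with cyclic loess it was 0.25, 0.25, 0.47 and 0.29.

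Other gene groups on the same arrays are given beside this pattern. The score of 6 measured red cell markers of 12 listed ran opposite, at 0.37, -0.64, -1.22 and 0.95 on paricalcitol 1 to 4 and 0.78, -1.04, -0.98 and 0.74 on combination 1 to 4. Their summed level ranged from 13.79 to 14.52 with paricalcitol, 13.73 to 14.59 with the combination, 14.22 to 14.50 in vehicle, 14.02 to 14.54 with enalapril and 14.37 to 14.52 in baseline. Of these markers, Hbb and Alas2 were above the floor on every array, and Rhag was at the floor on 15. The part of red cell content in the member pattern was not tested. With the red cell score as a covariate, 0 members had an adjusted p under 0.05 in any comparison, and the member median was 0.04 for vehicle over baseline, -0.00 for paricalcitol over vehicle and 0.08 for combination over vehicle.

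The score of the 12 cardiomyocyte markers stayed between -0.05 and 0.08 on the 19 arrays, and their summed level lay between 17.13 and 17.30. Macrophage markers scored -0.55 on paricalcitol 2, 0.44 on paricalcitol 3, -0.56 on combination 2 and -0.22 on combination 3. Their part was not tested either. The median deposited intensity was 47.01, 49.99, 50.50 and 66.09 on paricalcitol 1 to 4 and 61.04, 50.61, 43.88 and 52.22 on combination 1 to 4, and its part was not tested.

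**Figure D4:**
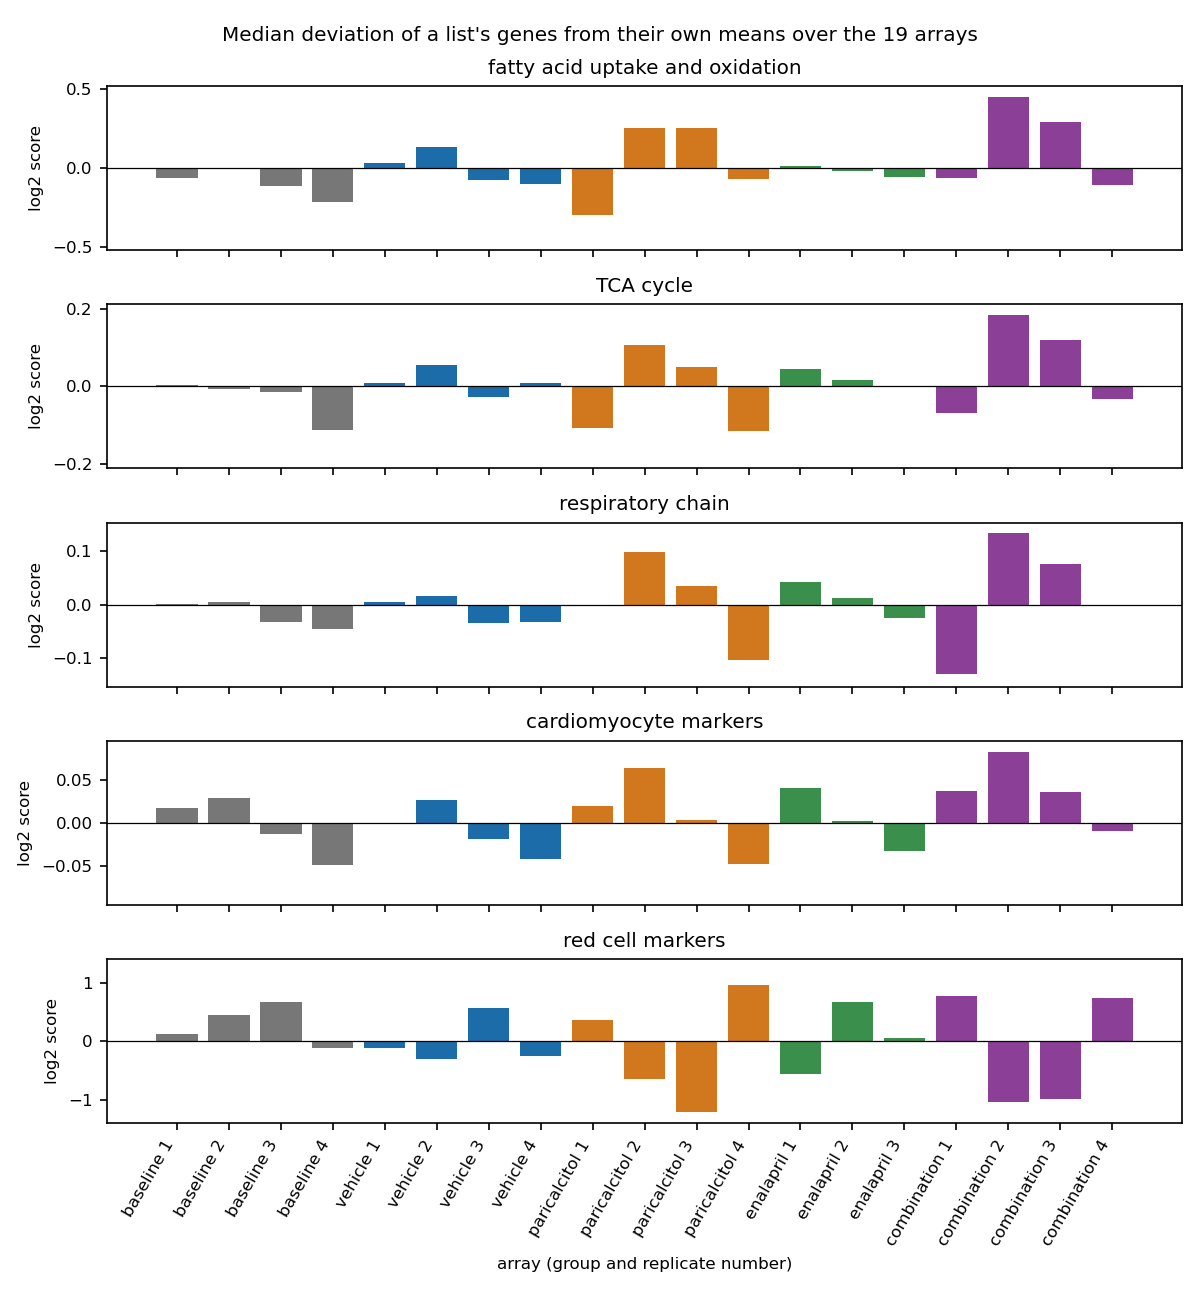
Bars are the array scores, the median log2 deviation of a list's genes from their own means over the 19 arrays, for the 31 members and for 4 other lists; the vertical scales differ between panels. The members reach 0.45 on combination 2 and -0.29 on paricalcitol 1, while the red cell markers are at -1.04 and 0.37 on these arrays and the cardiomyocyte markers stay between -0.05 and 0.08.

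The spread within groups was wider in the groups given paricalcitol, for the members and over all genes. The median SD of the members was 0.13 in baseline, 0.17 in vehicle, 0.28 with paricalcitol, 0.11 with enalapril and 0.31 with the combination. Over the genes brighter than the median gene it was 0.14, 0.12, 0.20, 0.12 and 0.18 in the same order. The SD of 26 of 31 members was larger with paricalcitol than in vehicle, where 64.1% of all genes had a larger SD, and that of 27 with the combination, against 62.2%. With enalapril it was larger for 14 members, against 47.3% of all genes. Pdk4 had an SD of 1.00 in each group given paricalcitol and 0.25 in vehicle, Acacb 0.69 and 0.85 against 0.23, and Hadh 0.56 and 0.73 against 0.31. Lpl, Acadl and Cpt1b kept an SD of at most 0.17 in each of these 3 groups. Decr1 was less spread with paricalcitol, at 0.13, than in vehicle, at 0.23.

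**Figure D5:**
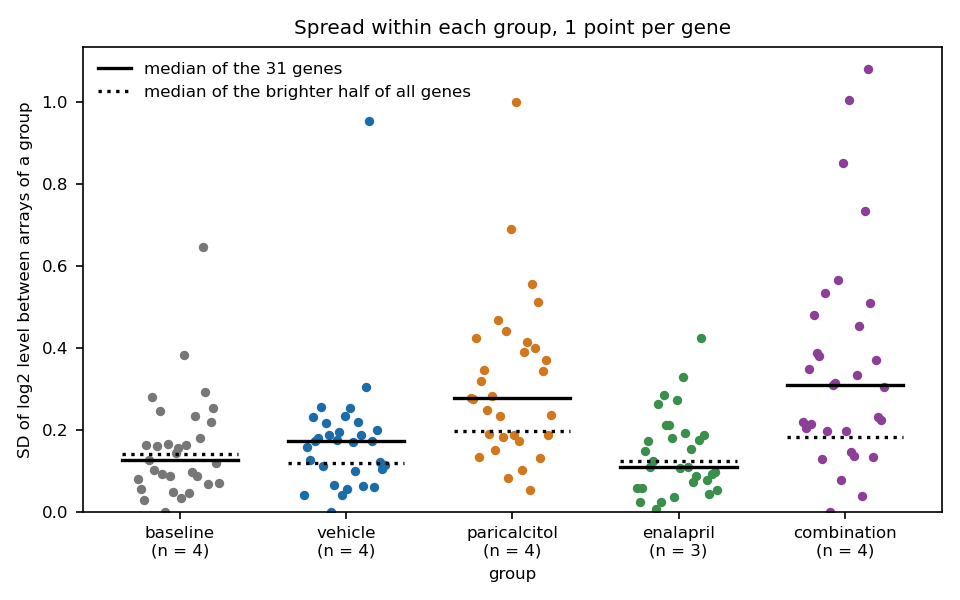
Each point is the SD of a gene's log2 level between the arrays of a group; the solid line is the median of the 31 genes and the dotted line that of the genes brighter than the median gene. The solid line is at 0.28 and 0.31 in the groups given paricalcitol and between 0.11 and 0.17 elsewhere.

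Correlations between members were taken over the 19 arrays after removing the group means, as a description, since all genes share the same arrays. Among the 435 pairs of 30 members (Ppara left out) the median Pearson's r was 0.65, and 74.9% of pairs were above 0.5. Among the 7108 genes of the brighter set the median was 0.00 and 8.44% of pairs were above 0.5. Pairs within other pathways, such as the TCA cycle or the respiratory chain, were not compared. The values thus do not show that the joint movement is particular to the members. In the 8 arrays of the groups given paricalcitol 84.4% of member pairs were above 0.5, against 18.8% of pairs in the brighter set, and in the 11 other arrays 39.1%, against 10.6%. The joint movement was thus visible outside the paricalcitol groups as well, at a smaller size.

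Etfdh, the outlet to the respiratory chain, followed the others most closely, with a median r of 0.82, and Hadh and Slc27a1 followed at 0.79 each. Ucp3 had a median r of 0.05, Decr1 0.40, Acadl 0.42 and Cpt1a 0.43. Hadh and Ech1 were almost parallel (r = 0.95). The trifunctional subunits Hadha and Hadhb gave r = 0.72, where the median over all member pairs was 0.65. The highest r of Hadha was with Acaa2 (0.83) and that of Hadhb with Ech1 (0.87). The flavoprotein subunits Etfa and Etfb gave 0.64, and the shuttle isoforms Cpt1a and Cpt1b 0.48. Acacb and Mlycd, which act on malonyl-CoA in opposite directions, gave 0.68 and so moved the same way.

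Other probe sets of the same genes showed the same movement for some members and not for others. Within groups the probe sets of Acsl1 gave r = 0.97 (a dim further one -0.27), those of Pdk4 0.91, those of Acot2 0.83 and 0.85 and those of Cpt1a 0.80. For Eci1 it was 0.57 and for Acaa2 0.46. The Ucp3 probe sets disagreed (r = 0.25), and the other Hadha probe sets were dim, with r of 0.03 and -0.22. The other Hadh probe set was at the floor on 19 of 19 arrays and gave no r. The values of Ucp3, Hadha and Hadh therefore rest on the brighter probe set alone.

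The upstream stretches of the members were searched on both strands in the 250 bases before the start, with 26 of the 32 listed genes matched in the RefSeq table. The GC box GGGCGG was in 15 of 26 (57.7%), against 30.5% of 33469 promoters, and the CCAAT box in 10 (38.5%), against 34%. The median GC content was 58.4% against 51.2%. The half-site AGGTCA was in 6 (23.1%), against 14.1%: Acacb, Acadvl, Echs1, Eci1, Slc27a1 and Ucp3. The PPAR direct repeat AGGTCANAGGTCA, which contains the half-site, was in 0 of 26 and in 0.0508% of all promoters. A match is a description of letters in this window and an absence says only that the letters are not in it.

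Neighbouring pathways gave no gene with an adjusted p under 0.05 in any of the 8 tests, from lists of which 22 of 27 peroxisomal and accessory genes, 26 of 27 genes of activation and storage, 20 of 21 regulators, 16 of 18 genes of the TCA cycle and 26 of 34 of the respiratory chain were measured (limma). In vehicle against baseline 2 genes of activation and storage were higher and 2 lower at an unadjusted p under 0.05, and 4 regulators were higher, where 9.22% of all genes were called in either direction. Fabp5, the epidermal fatty acid binding protein that endothelium also expresses, was -0.79 (SE 0.22) from baseline with an adjusted p = 0.205. Its level was 10.33 to 10.53 in baseline and 9.58 to 9.68 in vehicle. Acsl5, another acyl-CoA synthetase, was -0.26 (SE 0.09) from baseline, with an adjusted p = 0.352.

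In paricalcitol against vehicle Ucp2, a mitochondrial carrier, was -0.58 (SE 0.15) from vehicle with an adjusted p = 0.209. In combination against paricalcitol 4 regulators and 3 TCA cycle genes were higher and 1 TCA cycle gene lower at an unadjusted p under 0.05, and 1 gene of the respiratory chain was higher and 1 lower, where 9.05% of all genes were called in either direction. Sirt3, the mitochondrial deacetylase, was 0.35 (SE 0.09) higher, Idh3a, a subunit of isocitrate dehydrogenase, 0.28 (SE 0.07), Dlst, of the oxoglutarate dehydrogenase complex, 0.32 (SE 0.10), and Atp5f1d, of the ATP synthase, 0.20 (SE 0.05). Their adjusted p lay between 0.183 and 0.351. Atp5f1a, another subunit of the ATP synthase, was -0.10 (SE 0.04) from paricalcitol with an adjusted p = 0.46. On combination 2 and 3 the TCA cycle score was 0.18 and 0.12 and the respiratory chain score 0.13 and 0.08. There the regulators scored 0.26 and 0.13, peroxisomal and accessory genes 0.23 and 0.05, and activation and storage 0.19 and 0.10. The members scored 0.45 and 0.29. On paricalcitol 2 and 3 the regulators scored 0.18 and 0.12, and peroxisomal and accessory genes 0.14 and 0.20. There activation and storage scored 0.01 and 0.09, the TCA cycle 0.11 and 0.05, and the respiratory chain 0.10 and 0.04. The members scored 0.25 and 0.26.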

How the data were processed

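Left ventricular RNA was measured on Affymetrix arrays, per the labels' protocols. The deposited values are probe set intensities on a linear scale, and between 16% and 18.2% of values per array were below 0; for the software and scaling that the authors used, no source read here names any. Of 31099 probe sets 20826 name 1 gene, 436 several and 9780 none, per the platform annotation, and 57 are controls. Intensities were quantile normalized over the 19 arrays, floored at 0 and taken as log2(value + 16), so fold changes of low genes are understated. The probe set with the highest mean stood for each of 14217 genes. A group-means model was fitted with limma 3.58.1 (R 4.3.3, moderated variance with trend), with Benjamini-Hochberg adjustment over all genes; the threshold was an adjusted p of 0.05. On simulated data for vehicle against baseline, 3.99% of calls were false. Alternatives were other normalizations, pseudocounts of 8 and 64, dim genes left out, no trend, only the groups compared, the mean of all probe sets, the replicate number as a block, the red cell score as a covariate, and omission of each array singly. The members and lists were chosen with earlier results of these data known. Named were a panel of members, and in each comparison up to 5 members with the smallest p; of each related list up to 2 genes were named. Array number limits the precision. Nothing in the labels pairs rats between groups. Samples are listed in blocks by group, and the labels used here give no batch. Any batch difference between groups could not be examined.

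Genes outside that rule, named after their values were seen, were Cd36 in enalapril against vehicle, Slc27a1 in vehicle against baseline, Hadhb, Pdk4 and Acot2 in paricalcitol against vehicle, Cpt1b and Pdk4 in combination against vehicle, and Acads, Hadh, Echs1, Ech1, Eci1, Eci2, Decr1, Etfa and Etfb by their levels. Promoter sequences were matched by symbol, and the gene ID matched too for 25 of 26.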

Additional observations from a re-analysis of the deposited data

Results flagged for a closer look

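Sets of 4 arrays were tested for 30 members (Ppara left out) and for the array score, in the 4 groups of 4. In 4 of these 124 sets, an array's gap to its nearest neighbour, relative to the range of the set, exceeded Dixon's critical value. Chance gives about 1 in 20. Fabp3 read 13.40 on baseline 4, where the other 3 arrays lay between 13.72 and 13.73. Acads read 9.51 on the same array, where the others lay between 10.03 and 10.11. Cpt1a read 8.82 on combination 1, where the others lay between 9.40 and 9.46. Etfdh read 11.14 on vehicle 2, where the others lay between 10.87 and 10.91.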

How the results depend on the processing

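No member had an adjusted p under 0.05 in any of 167 alternative fits and comparisons. Counts over all genes, which give the background, did move from 12 (vehicle against baseline), 2 (paricalcitol against vehicle), 0 (enalapril against vehicle), 1 (combination against vehicle), 0 (combination against enalapril, combination against paricalcitol and the interaction) and 18 (any difference). Without equalising the arrays they were 3, 1, 0 for combination against vehicle, 1 for the interaction and 3 for any difference. With arrays scaled to one median they were 89, 214, 1, 0 for combination against vehicle, 69 for combination against paricalcitol, 8 for the interaction and 105 for any difference, and the member median of the interaction was 0.25. Paricalcitol against vehicle gave 1 with cyclic loess, 1 without the variance trend, 1 with only the groups compared and 9 with dim genes left out. Combination against vehicle gave 0 with loess, 0 without dim genes, 2 with only the groups compared and 2 with the red cell covariate. Vehicle against baseline gave 45 with only the groups compared, 7 with the mean of all probe sets and 43 with the covariate. Combination against paricalcitol gave 1 with the mean of probe sets and 2 with the covariate, and any difference gave 4 with dim genes left out and 4 with the mean of probe sets.

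Signs turned for 5 named values under another scaling: Cpt1a (0.0239) and Lpl (0.0034) in enalapril against vehicle without equalising, and Hadhb in paricalcitol against vehicle (-0.021), Cd36 in enalapril against vehicle (-0.0354) and Cpt1b in combination against vehicle (-0.0206) with one median. Among related genes, Ucp2 in paricalcitol against vehicle had an adjusted p = 0.0356 with one median, and Fabp5 in vehicle against baseline had an adjusted p = 0.00779 with only the groups compared (limma).

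Leaving out each array in turn gave 0 members in every comparison. All-gene counts ranged from 0 to 5 in vehicle against baseline, 0 to 10 in paricalcitol against vehicle, 0 to 2 in enalapril against vehicle, 0 to 1 in combination against vehicle, 0 to 2 in combination against enalapril, 0 to 2 for the interaction and 0 to 26 for any difference. Pdk4 in combination against vehicle ranged from -0.15 without combination 2, through -0.05 without combination 3, to 0.60 without combination 1, and Ppara in enalapril against vehicle was 0.00 without enalapril 3. The member median of combination against paricalcitol was -0.05 and that of the interaction -0.05 without combination 2. The cause of these moves was not tested.

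Same-numbered replicates deviated together (every r above 0.1) for 1 of 10 pairs of groups, paricalcitol and combination, with r of 0.31 to 0.56, and the labels do not pair rats. With the replicate number as a block the all-gene counts were 19 in vehicle against baseline, 14 in paricalcitol against vehicle, 2 in combination against vehicle, 1 in combination against paricalcitol and 1 for the interaction, and no member passed.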
